A study of Mus musculus with 20 samples.

Results

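The platelet-derived growth factor (PDGF) family was followed through the stromal and immune cells of mouse interscapular brown adipose tissue as 6 genes, the receptors Pdgfra and Pdgfrb and the ligands Pdgfa, Pdgfb, Pdgfc and Pdgfd. They were taken by symbol from the 31053 genes of the count tables, and all 6 had counts in every library. PDGF ligands are secreted dimers that bring receptor tyrosine kinases together at the cell surface. PDGF-A and PDGF-C act mainly through the alpha receptor, PDGF-D through the beta receptor and PDGF-B through both, and PDGF-C and PDGF-D must be cut by proteases before they can bind. In adipose tissue the alpha receptor is the usual marker of fibroblast-like adipose tissue stromal cells (ASCs), which include adipocyte progenitors, and the beta receptor marks the mural cells that wrap blood vessels.

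The libraries were 10x single-cell RNA profiles of 10 experiments, each split by magnetic beads into lineage-negative (Lin-) and lineage-positive (Lin+) cells and each made from a pool of 3 to 4 mice aged 8 to 14 weeks. Male C57BL/6J (C57) mice were kept at 24 °C (RT), at 6 °C for 4 days (COLD) or at room temperature with 4 days of CL316,243, a β3-adrenergic agonist, infused at 0.75 nmol per hour (CL), with 2 experiments per group. Female mice carrying Adrb1 fl/fl, which encodes a floxed β1-adrenergic receptor, were tamoxifen-treated whether they lacked Pdgfra-CreER (a CreERT2 allele; WT) or carried it (KO), and were kept at RT or in the cold for 4 days, with 1 experiment per group. The Cre recombinase of the KO mice is inserted at Pdgfra, so that Pdgfra is the driver of the deletion as well as a gene measured here. In this line the RT libraries were made with kit version 3 and the COLD libraries with version 2, so kit and temperature cannot be told apart there, nor can line and sex.

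After filtering, 66339 Lin- and 59935 Lin+ cells remained, with 7857161 to 31325801 unique molecular identifiers (UMIs) per Lin- library and 9388617 to 41979839 per Lin+ library. RT replicate 2 stood apart among the Lin- libraries, with 28% of its barcodes kept, and CL replicate 2 had 1098 barcodes in common between its 2 fractions, 17.1% of the smaller one against 2.04% for the next of 190 pairs of libraries. Clusters were named by marker genes as cell classes, 16 in Lin- and 13 in Lin+, and 13.1% of Lin- and 13.7% of Lin+ cells stayed unnamed. A level below is the count of a gene in one class of one library, scaled to a fixed total and written as CPM, where the library held at least 20 cells of the class, and a difference is a log2 fold change with its standard error (SE). Counts of the members over all cells of a Lin- library had medians of 5729 for Pdgfra, 2861 for Pdgfrb, 862 for Pdgfa, 467 for Pdgfd, 412 for Pdgfb and 145 for Pdgfc. In Lin+ libraries the medians were 286 for Pdgfb, 251 for Pdgfa, 60 for Pdgfrb, 43.4 for Pdgfc, 43 for Pdgfra and 18 for Pdgfd.

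The alpha receptor was a gene of the fibroblast-like cells. Pdgfra (chromosome 5, 75152292 to 75198215, + strand, GRCm38) averaged 419.6 ± 185.5 CPM (SD, n = 10 libraries) in the Cilp stromal-like class, 412 ± 161 in ASC1-like cells, 369 ± 107 in ASC3-like cells and 238 ± 77.4 in ASC2-like cells. The ASC1-like libraries ran from 157 through a median of 388 to 786 CPM, and the ranges of neighbours in this order overlapped, so the 4 classes were not set apart by their libraries. ASC1-like cells, the most numerous of them with a median of 22.5% of Lin- cells, held a median of 46.0% of the Pdgfra counts in a Lin- library, and ASC3-like cells held 21.9%. Cells in the Proliferating-like class averaged 152 ± 45.3 CPM over 6 libraries. Differentiating adipocyte-like cells had a median of 42 CPM over 7 libraries, from 20.6 to 480.1, with the highest value in the WT library at RT. ILC2-like cells of the Lin- fraction carried 61.6 CPM, and the summed level of the 7 ASC1 markers in them was 482 to 1586 CPM; the part of such RNA in their Pdgfra was not tested. Among Lin+ cells a median of 92.1% of Pdgfra counts lay in unnamed clusters, including a Dcn-led cluster of 1304 cells, of which 80.67% came from CL replicate 2 and in which Pdgfra averaged 225 CPM. Of the 1555 unnamed Lin+ cells of CL replicate 2, 1022 had barcodes in common with its Lin- library.

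The beta receptor was highest in mural cells. Pdgfrb (chromosome 18, 61045150 to 61085061, + strand) averaged 1356 ± 428 CPM in Pericyte-like cells, with a lowest library of 807, a median of 1277 and a highest of 2061. Every Pericyte-like library lay above the libraries of the next class, the vascular smooth muscle cell (VSMC)-like cells, which averaged 367 ± 80.1 CPM in Lin- and 434 ± 200.1 in the 4 Lin+ libraries that held enough of them. ASC1-like cells followed at 211 ± 40.7 CPM, ahead of ASC3-like cells at 117 ± 29.2 and ASC2-like cells at 57.2. Because Pericyte-like cells were a median of 2.2% of Lin- cells, they held 10.7% of the Pdgfrb counts and ASC1-like cells held 38.2%.

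**Figure D1:**
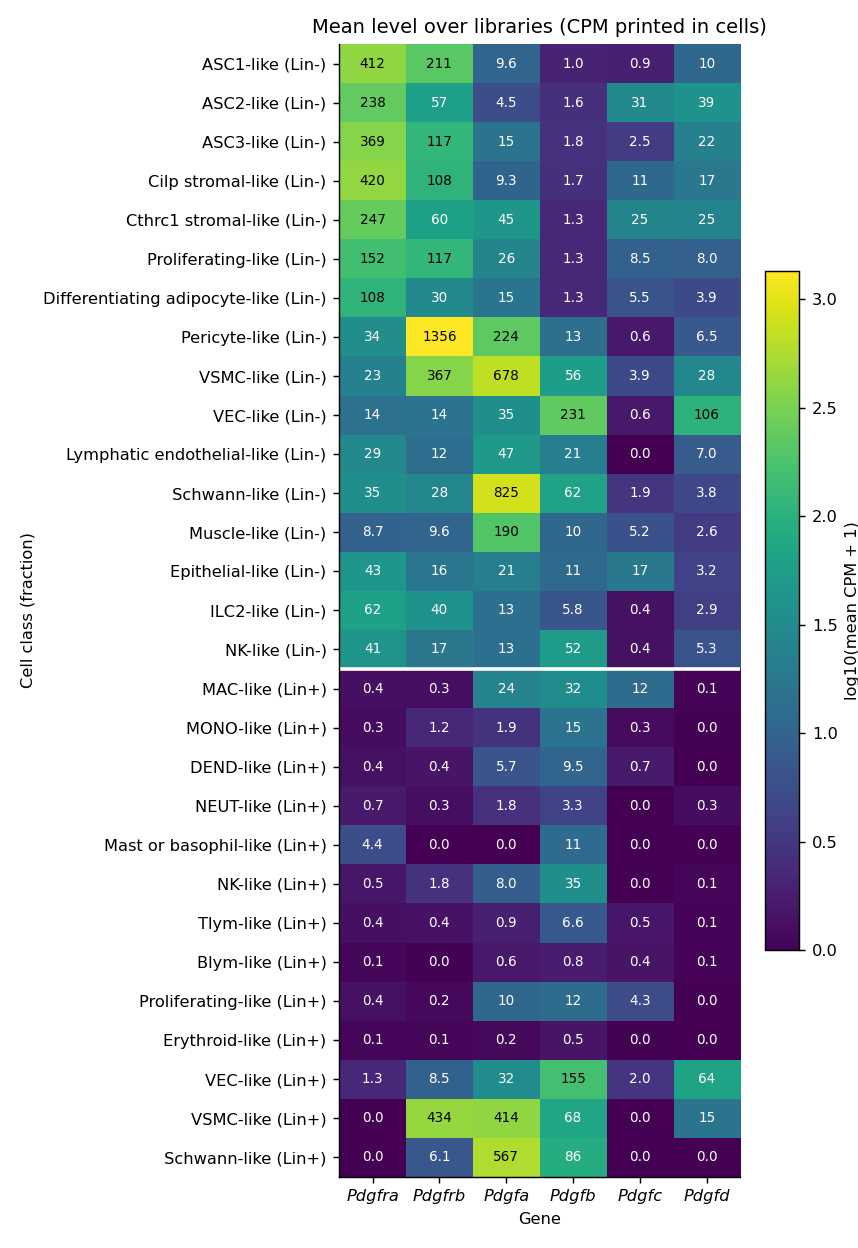
Heat map of the mean level of each PDGF gene (columns) in each of 29 cell classes (rows, Lin- and Lin+ shown separately), in CPM averaged over the libraries with at least 20 cells. Pdgfra is brightest in the stromal classes, Pdgfrb in Pericyte-like cells, Pdgfa in Schwann-like and VSMC-like cells, Pdgfb and Pdgfd in vascular endothelial-like cells and Pdgfc in ASC2-like cells.

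The ligands had partly shared sources, with VEC-like cells the highest named class for both Pdgfb and Pdgfd and ASC2-like cells a main source of both Pdgfc and Pdgfd. Pdgfa (chromosome 5, 138976014 to 138997370, - strand) averaged 825 ± 220 CPM in Schwann-like cells of the Lin- fraction, with libraries from 481 through a median of 879 to 1101, and 678 ± 163 CPM in VSMC-like cells, with libraries from 507 to 1065. These ranges overlapped. Pericyte-like cells came next among the classes present in all Lin- libraries, at 224 ± 105 CPM. Schwann-like cells, the glia of peripheral nerves, were a median of 2.0% of Lin- cells and VSMC-like cells 2.8%, yet they held medians of 19% and 29.2% of the Pdgfa counts. In the Lin+ fraction macrophage (MAC)-like cells held a median of 46.1% of Pdgfa counts, although their mean level was 23.9 ± 5.07 CPM.

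Pdgfb (chromosome 15, 79995874 to 80014977, - strand) averaged 231 ± 62.7 CPM in vascular endothelial cell (VEC)-like cells of the Lin- fraction, with libraries from 115 through 236 to 338 CPM, and 155 ± 60.1 CPM in those of the Lin+ fraction. Its mean was 301 CPM in arterial, 225 in capillary and 119 in venous VEC-like cells. VEC-like cells held a median of 57.8% of the Lin- Pdgfb counts with 9.8% of the cells. Schwann-like cells had 62.1 ± 33.7 CPM and VSMC-like cells 56 ± 15.2 CPM. Among immune cells the gene was seen in natural killer (NK)-like cells, at 52.2 ± 38.8 CPM in the Lin- fraction (25.6 to 149.5) and 35.3 ± 23 in the Lin+ fraction, and in Lin+ MAC-like cells at 32.3 ± 24.1 CPM, and the MAC-like cells held a median of 43.3% of Lin+ Pdgfb counts. Monocyte (MONO)-like cells averaged 14.5 ± 8.56 CPM and were uneven, since their cluster led by Ace had 19.5 to 50.7 CPM of Pdgfb and their cluster led by Chil3 had 0 to 14.3 CPM, without overlap. The MAC-like cluster led by Lilra5 reached 70 CPM on average (43.6 to 137), against 35.1 in the cluster led by Gpnmb, 20 in that led by Retnla and 19.3 in that led by Ccl8.

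Pdgfc (chromosome 3, 81036416 to 81214040, + strand) was the sparsest ligand of the Lin- fraction. It averaged 30.7 ± 12.2 CPM in ASC2-like cells, with libraries from 14.3 to 50.7, and 25.4 ± 10.2 CPM in the Cthrc1 stromal-like cells of 7 libraries. ASC2-like cells held a median of 62.3% of Lin- Pdgfc counts with 19.2% of the cells. In the Lin+ fraction MAC-like cells held 82.1% of them with 15.9% of the cells, at 11.8 ± 9.13 CPM. Among the MAC-like clusters Pdgfc averaged 34.1 CPM in that led by Ccl8, 10.3 in that led by Lilra5, 8.18 in that led by Gpnmb and 1.86 in that led by Retnla. Pdgfd (chromosome 9, 6168584 to 6378850, + strand) had 2 main sources, VEC-like cells at 106 ± 54.1 CPM (46.8 to 187) and ASC2-like cells at 39.1 ± 12.2 CPM (27.2 to 67.1). Within the endothelium its mean was 189 CPM in arterial, 55.9 in capillary and 32.2 in venous cells. VEC-like and ASC2-like cells held medians of 29.6% and 24.8% of Lin- Pdgfd counts.

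**Figure D2:**
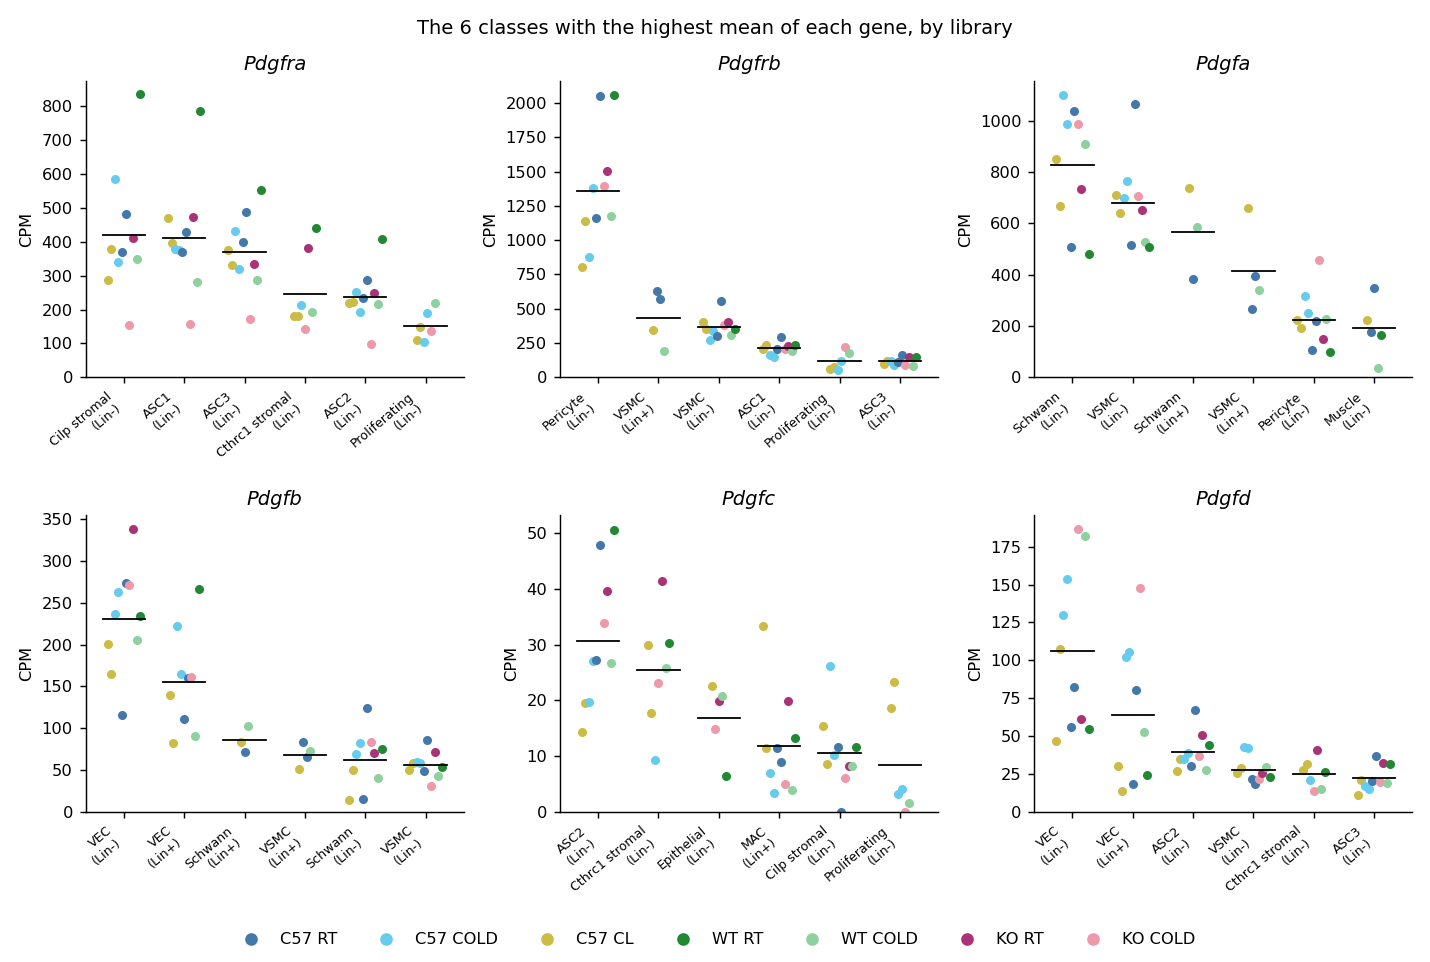
Level of each PDGF gene, in CPM, in the 6 cell classes with the highest mean; each point is a library and classes run from the highest mean to the lowest. The Pericyte-like points of Pdgfrb, from 807 to 2061 CPM, lie clear of the next class, whereas for the other 5 genes the points of the first and second classes overlap.

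Over the 29 classes, the mean levels on a log2(CPM + 1) scale of Pdgfra and Pdgfrb had a Pearson r of 0.70, and Pdgfrb and Pdgfd had 0.72. Pdgfra and Pdgfb had -0.39 and Pdgfb and Pdgfc -0.30. These values describe classes that share libraries, and cells of one tissue differ in many genes at once. Among 8578 genes with at least 50 CPM in some class, those with the profile most like that of Pdgfra were Svep1 (r = 0.986), Lum (0.985), Dpep1 (0.980), Prrx2 (0.979) and Lhx8 (0.966), and those most like Pdgfrb were Nfatc4 (0.960), Tbx18 (0.959), Ndufa4l2 (0.957), Aspn (0.945) and Pla2r1 (0.944). Lum encodes the collagen-binding proteoglycan lumican, and Tbx18 is a transcription factor known from mural cells. Pdgfd followed Eln (0.952), the gene of elastin, then Fam13c (0.936), Mtmr11 (0.933), Meox2 (0.930) and Ly6c1 (0.926). The likeness was looser for the other ligands, with Phlda3 (0.878), Hbegf (0.876), Tmem246 (0.870), Mtss1l (0.861) and Rasal2 (0.861) for Pdgfa, Ssfa2 (0.807), Map3k11 (0.774), Myo18a (0.769), Ednrb (0.764) and Fryl (0.759) for Pdgfb, and Myof (0.749), Ociad2 (0.723), Steap2 (0.706), Fbn2 (0.704) and Steap3 (0.702) for Pdgfc.

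The cold comparison asked which ligands and receptors differed between COLD and RT in each cell class of C57 mice. Of 120 pairs of a member and a class, 45 had enough counts to be tested with edgeR's quasi-likelihood test, with Benjamini-Hochberg adjustment over all genes of the class. The test called 4 of the 45 pairs, against 4.97% of all gene and class pairs, and 12 of the 45 had an unadjusted p under 0.05, against 16.5% of all pairs. The 4 calls were Pdgfa and Pdgfd in ASC1-like cells and Pdgfa and Pdgfb in MAC-like cells.

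In ASC1-like cells Pdgfa rose in the cold. Its levels were 5.1 and 7.2 CPM in the RT libraries (34.2 and 15.1 counts), 15.6 and 12.8 CPM in COLD (156 and 169 counts) and 10.2 and 5.0 CPM in CL. No RT library reached the level of a COLD library. The log2 fold change was 1.37 ± 0.29 (SE), 2.58-fold, with an adjusted p of 0.0169 from edgeR. The Adrb1 line, which did not enter this test, went from 3.9 CPM at RT to 20.8 CPM in the cold in WT and from 1.4 to 14.5 CPM in KO.

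Pdgfd moved the other way in the same cells. It had 15.6 and 15.1 CPM at RT (105 and 31.6 counts), 5.5 and 5.6 CPM in COLD (55 and 74 counts) and 9.0 and 10.4 CPM in CL. The COLD libraries were the lowest of the C57 libraries. The log2 fold change was -1.39 ± 0.29, to 0.381 of the RT level, with an adjusted p of 0.0163 from edgeR. In the Adrb1 line Pdgfd went from 13 to 3.4 CPM in WT and from 16.8 to 6.0 CPM in KO. These 2 calls were the only ones among the 4 members tested in ASC1-like cells, where 13.2% of all genes were called. Pdgfra stood at 371 and 430.2 CPM at RT and 379 and 376 in COLD (0.06 ± 0.36, adjusted p 0.935). Pdgfrb stood at 203 and 293 CPM at RT and 165 and 146 in COLD (-0.50 ± 0.26, adjusted p 0.245). The interval of 2 SE on each side reached from -0.66 to 0.77 for Pdgfra and from -1.02 to 0.03 for Pdgfrb. Unlike in C57 mice, Pdgfra of the Adrb1 line was lower in the cold than at RT in WT and in KO. Its values are given with the KO comparison, and kit and temperature cannot be told apart there.

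The sequence around the start site is shown for these 2 genes because they changed in opposite directions in one cell class. RefSeq start windows, from 250 bases before to 50 after the start, were found for 4 of the 6 members, and 2 motifs were searched on both strands: the GC box GGGCGG, held by 35.7% of 32851 windows, and the TATA box TATAAA, held by 13.6%. The Pdgfa window shown (GRCm38.p6, chr5:138994895-138995194, - strand) had 2 GC boxes and the Pdgfd window (chr9:6168236-6168535, + strand) had 1 TATA box, both in capitals. Each is a match of letters at any place in the window, and its use as a promoter element was not tested. RefSeq and the GENCODE M21 annotation, from which the gene positions were taken, place these starts differently, so the Pdgfa window lies inside the gene span given above and the Pdgfd window ends before it. A second Pdgfa window held 1 GC box, and those of Pdgfra and Pdgfc held neither motif.
Pdgfa: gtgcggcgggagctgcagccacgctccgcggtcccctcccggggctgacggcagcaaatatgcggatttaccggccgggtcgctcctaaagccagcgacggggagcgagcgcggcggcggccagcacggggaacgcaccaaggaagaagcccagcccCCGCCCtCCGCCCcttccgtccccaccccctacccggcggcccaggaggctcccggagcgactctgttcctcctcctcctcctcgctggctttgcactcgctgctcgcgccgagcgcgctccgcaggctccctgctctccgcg
Pdgfd: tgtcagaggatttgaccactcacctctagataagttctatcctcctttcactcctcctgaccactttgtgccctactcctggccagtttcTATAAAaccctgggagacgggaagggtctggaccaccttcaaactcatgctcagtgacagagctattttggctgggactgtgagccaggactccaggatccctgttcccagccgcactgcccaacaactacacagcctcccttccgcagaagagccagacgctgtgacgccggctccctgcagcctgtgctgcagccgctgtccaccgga

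The makeup of the ASC1-like class also moved with temperature. Its Cxcl9-led cluster had 57 and 90 cells in the RT libraries and 2294 and 2016 in COLD, and its Smoc2-led cluster had 1175 and 979 cells at RT and 247 and 162 in COLD. The 7 ASC1 markers summed to 12259 to 15194 CPM at RT, 3102 to 3330 in COLD and 4243 to 6622 in CL, and 8 adipocyte genes summed to 4544 to 5197, 6912 to 7539 and 5225 to 5619 CPM. The ASC1 markers did not move evenly. Smoc2 went from 4330 to 5966 CPM at RT to 255 to 279 in COLD and Cxcl14 from 4160 to 4545 to 933 to 1143, whereas Bmper overlapped at 292 to 412 and 311 to 331. In the Adrb1 line Cxcl14 stood at 986 (WT) and 1136 (KO) CPM at RT and at 1698 and 1444 in COLD, and Bmper was also higher in COLD. The other ASC1 markers, Smoc2, Col5a3, Col15a1, Penk and Hsd11b1, were lower in COLD in that line in WT and in KO. Smoc2 there went from 3330 to 326 CPM in WT and from 3410 to 399 CPM in KO. Most of the adipocyte sum was Lpl, at 4501 to 5176 CPM at RT and 5603 to 5891 in COLD. Fabp4 went from 4.30 to 32.6 CPM at RT to 984 to 1394 in COLD and Car3 from 6.69 to 6.70 to 205 to 244, while Adipoq lay at 0.149 to 1.43 CPM at RT and at 17.6 to 30.8 CPM in COLD. The part of these shifts in the 2 calls was not tested on the summed class. Within single clusters neither gene was called: Pdgfa differed by 0.83 ± 0.73 (adjusted p 0.742) and Pdgfd by -0.52 ± 0.74 (adjusted p 0.855) in the Cxcl9-led cluster, and Pdgfd by -0.96 ± 0.48 (adjusted p 0.476) in the Smoc2-led one. Leaving out any 1 of the 4 RT and COLD libraries kept the direction of Pdgfa but ended its call, with an adjusted p of 0.0812 or 0.0854 when RT replicate 1 or 2 was left out and 0.102 or 0.0545 when COLD replicate 1 or 2 was. The Pdgfd call held when RT replicate 2 was dropped (-1.68, adjusted p 0.0215). It ended when RT replicate 1 was dropped (-0.96, adjusted p 0.135), and likewise for COLD replicate 1 (adjusted p 0.0941) and 2 (adjusted p 0.068).

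The other ASC subtypes gave no call. In ASC2-like cells Pdgfd had 29.9 and 67.1 CPM at RT and 34.7 and 38.5 in COLD, with the RT values on both sides of the COLD values (-0.22 ± 0.26, adjusted p 0.845). The difference between the subtypes was tested directly, with library as a block: the cold change of Pdgfd was lower in ASC1-like than in ASC2-like cells by -1.28 ± 0.32 on the log2 scale (adjusted p 0.0226). Without RT replicate 1 it was -0.48 (adjusted p 0.496), and it was also not called without COLD replicate 1 (adjusted p 0.0578) or COLD replicate 2 (adjusted p 0.156). It was the 1 call among the 6 members, where 8.61% of all genes were called. The same test between ASC1-like and ASC3-like cells called 0 of the 5 members tested, against 6.64% of all genes, although 2 of the 5, Pdgfc and Pdgfd, had an unadjusted p under 0.05. Pdgfd in ASC3-like cells had 20.5 and 37 CPM at RT and 17.1 and 15.3 in COLD (-0.68 ± 0.36, adjusted p 0.791). Pdgfc in ASC2-like cells had 27.3 and 48 CPM at RT and 19.7 and 27.1 in COLD (-0.51 ± 0.27, adjusted p 0.607). Summed over the whole ASC lineage, that is the 3 ASC subtypes with the Proliferating-like and Differentiating adipocyte-like cells, Pdgfc had 8.8 and 19.6 CPM at RT and 3.7 and 5.2 in COLD (-1.44 ± 0.32, adjusted p 0.068), Pdgfd 21 and 38.7 CPM at RT and 7.4 and 10.7 in COLD (-1.53 ± 0.42, adjusted p 0.0878) and Pdgfa 5.2 and 8.0 CPM at RT and 14 and 12.1 in COLD (1.14 ± 0.37, adjusted p 0.111). None of these was called, although with the replicate experiment as a block Pdgfc (-1.45, adjusted p 0.013) and Pdgfd (-1.57, adjusted p 0.0183) were, and the mix of subtypes in that sum differed between the groups. DESeq2 called the first 2 of them.

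In MAC-like cells, the phagocytes of the tissue, Pdgfb fell in the cold. Its levels were 63 and 36 CPM at RT (170 and 124 counts), 11.5 and 9.8 CPM in COLD (183 and 113 counts) and 14.6 and 25.5 CPM in CL. The COLD and RT libraries did not overlap, and the CL libraries lay between them. The log2 fold change was -2.19 ± 0.35, 4.57-fold lower, with an adjusted p of 0.00235, and it stayed called in 15 of 15 alternatives, from -2.51 to -1.73. The Adrb1 line went from 59.5 CPM at RT to 11 in the cold in WT and from 72.5 to 19.7 CPM in KO. Pdgfa rose slightly in MAC-like cells, from 22.9 and 20.9 CPM at RT to 31.6 and 33 in COLD, with 24.8 and 26.4 CPM in CL (0.57 ± 0.19, adjusted p 0.04). In the Adrb1 line Pdgfa went from 19.4 to 22 CPM in WT and from 21.1 to 17.6 CPM in KO. Pdgfc had 11.5 and 9.0 CPM at RT and 6.9 and 3.4 in COLD (-0.95 ± 0.50, adjusted p 0.166), and was called with the replicate experiment as a block (-1.05 ± 0.29, adjusted p 0.0177). The 2 calls among 3 members tested stood in a class where 35.2% of all genes were called.

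The MAC-like class also changed its makeup. The Lilra5-led cluster, the one with the highest Pdgfb level, had 566 and 541 cells in the RT libraries and 73 in COLD replicate 1 and fewer than 20 in COLD replicate 2. The Gpnmb-led cluster went from 23 and 22 cells to 1589 and 1113. Within the Gpnmb-led cluster Pdgfb went from 102 and 31.7 CPM to 6.4 and 5.5 CPM (-3.38 ± 0.77, adjusted p 0.0488 from edgeR). The RT levels of this cluster rest on those 23 and 22 cells, close to the minimum of 20, so they are poorly known. In the Ccl8-led cluster Pdgfb differed by -2.31 ± 0.69 (adjusted p 0.0723). In the Retnla-led cluster the difference was 0.42 ± 0.42 (adjusted p 0.510). For Pdgfa the Gpnmb-led cluster gave -0.19 ± 0.57 (adjusted p 0.921). Pdgfb is also a product of platelets, so their markers were read beside it. The 6 platelet or megakaryocyte markers summed to 3348 to 5143 CPM at RT, 1332 to 1529 in COLD and 2641 to 3416 in CL, and nearly all of this was Pf4 (3342 to 5135 CPM at RT), which tissue macrophages also express. Ppbp stood at 4.95 to 6.29 CPM at RT and 6.83 to 7.28 in COLD, and in the C57 libraries Gp1bb was at 0 and Gp9, Itga2b and Treml1 were at or under 0.825 CPM. The 7 VEC markers summed to 33.7 to 37 CPM at RT and 36.6 in both COLD libraries. The adipocyte genes summed to 604 to 906 CPM at RT and 1603 to 1711 in COLD, and their part in the Pdgfa result was not tested. This rise lay mostly in Lpl (536 to 781 CPM at RT and 1158 to 1232 in COLD) and Fabp4 (51.8 to 90.6 and 431 to 457). The paper lists Lpl among the top genes of MAC1, its largest macrophage cluster induced by cold. Ucp1 was also higher, at 1.75 to 2.96 CPM at RT and 6.40 to 8.16 in COLD. Adipoq was at 1.16 to 2.96 CPM at RT and 0.519 to 0.941 in COLD, and Cfd at 4.65 to 13.7 and 1.30 to 1.63. Cidec was lower in COLD as well, and Car3 and Plin1 overlapped. The Pdgfa call in MAC-like cells ended without either RT replicate or either COLD replicate (adjusted p 0.0899 to 0.204).

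**Figure D3:**
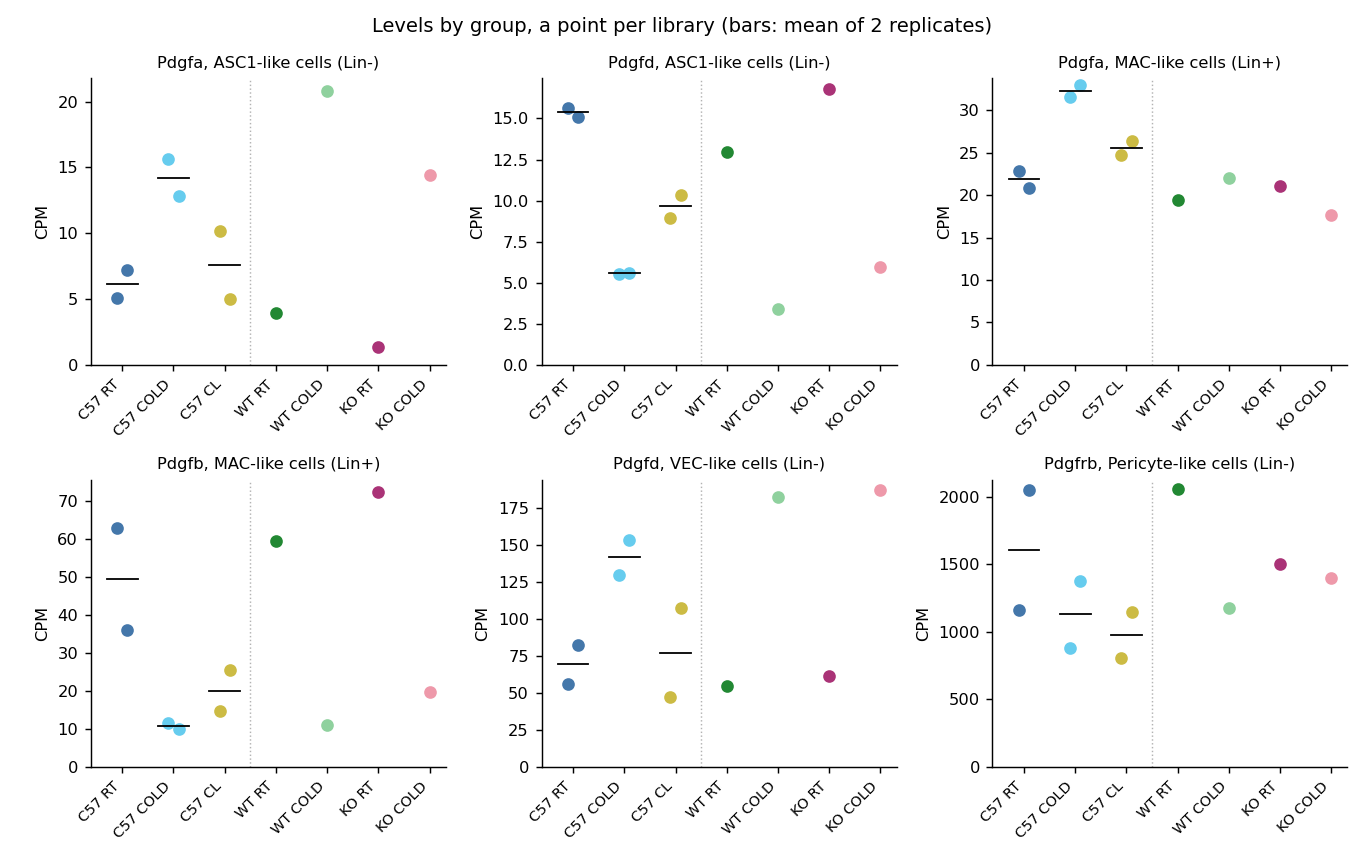
Levels in CPM by group in 6 pairs of a gene and a class: Pdgfa and Pdgfd in ASC1-like cells, Pdgfa and Pdgfb in MAC-like cells, Pdgfd in VEC-like cells and Pdgfrb in Pericyte-like cells; each point is a library. COLD points lie below RT points for Pdgfd in ASC1-like cells and Pdgfb in MAC-like cells and above them for Pdgfa in ASC1-like cells, and Pdgfrb in Pericyte-like cells spreads from 807 to 2061 CPM with no gap between groups.

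Lower Pdgfb in the cold was not called in other immune classes. In NK-like cells of the Lin+ fraction it had 49.5 and 36.3 CPM at RT and 8.7 and 23.2 in COLD (-1.58 ± 0.46, adjusted p 0.0799). Dendritic cell (DEND)-like cells had 16 and 9.4 CPM at RT and 6.5 and 7.8 in COLD (-1.09 ± 0.33, adjusted p 0.0717). MONO-like cells had 25.8 and 13.6 CPM at RT and 6.8 and 20.8 in COLD (-0.72 ± 0.50, adjusted p 0.436). In VEC-like cells of the Lin- fraction, the main source, Pdgfb had 115 and 274 CPM at RT and 237 and 263 in COLD (0.50 ± 0.29, adjusted p 0.606).

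Endothelial Pdgfd was higher in each cold library but was not called in the C57 test. VEC-like cells of the Lin- fraction had 56 and 82.3 CPM at RT (139 and 72.8 counts), 129.8 and 154 CPM in COLD (190.3 and 220.2 counts) and 46.8 and 107 CPM in CL. The difference was 1.12 ± 0.36 (adjusted p 0.339). The Adrb1 line went from 54.9 to 182 CPM in WT and from 61.3 to 187 CPM in KO, so the 4 cold libraries all lay above the 4 RT libraries. A fit of all 8 RT and COLD libraries with the experiment set as a block gave 1.25 ± 0.17 (adjusted p 0.00602), in which the Adrb1 line brings its change of kit with it. Arterial VEC-like cells alone had 119.8 and 149.8 CPM at RT and 250.4 and 253 in COLD (0.96 ± 0.35, adjusted p 0.410), and capillary ones had 33.8 and 47.1 CPM at RT and 63.8 and 72.8 in COLD (0.79 ± 0.24, adjusted p 0.226). Erythroid RNA in VEC-like cells summed to 156 to 3355 CPM at RT and 5224 to 5379 in COLD, and its part in the result was not tested.

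The receptors showed no call in the cold in any class. Pdgfra was tested in 8 classes and had a higher estimate in 6 of them, from -0.18 in ASC3-like cells to 1.51 ± 0.49 in Pericyte-like cells, where it had 12.9 and 32 CPM at RT and 80 and 39.4 in COLD (adjusted p 0.249). Pdgfrb was tested in 8 classes and had a lower estimate in 6, with a median of -0.34. In Pericyte-like cells Pdgfrb had 1164 and 2053 CPM at RT and 879 and 1378 in COLD, overlapping (-0.39 ± 0.55, adjusted p 0.907). Pericyte-like Pdgfa had 106 and 219 CPM at RT and 316 and 248 in COLD (0.92 ± 0.33, adjusted p 0.342). Schwann-like Pdgfa had 506 and 1038 CPM at RT and 1101 and 986 in COLD (0.46 ± 0.55, adjusted p 0.837), and VSMC-like Pdgfa had 516 and 1065 CPM at RT and 699 and 763 in COLD (0.00 ± 0.49). The spread between the RT replicates in these classes was wide, with RT replicate 2 higher in each.

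The CL comparison asked the same of β3-adrenergic stimulation, against the same RT libraries as the cold comparison. It called 0 of 45 pairs by edgeR, against 0.694% of all pairs, and 4 of the 45 had an unadjusted p under 0.05, against 10.3% of all pairs. DESeq2 called 1. With the replicate experiment as a block edgeR called 2, Pdgfb (-1.33 ± 0.34, adjusted p 0.0393) and Pdgfc (0.99 ± 0.27, adjusted p 0.0486) in MAC-like cells. The lowest adjusted p was that of Pdgfb in MAC-like cells, at 63 and 36 CPM in RT and 14.6 and 25.5 in CL (-1.32 ± 0.35, adjusted p 0.0568). MONO-like Pdgfb had 25.8 and 13.6 CPM at RT and 6.8 and 6.4 in CL (-1.68 ± 0.53, adjusted p 0.226). Pdgfc in MAC-like cells had 11.5 and 9.0 CPM at RT and 33.4 and 11.5 in CL (1.13 ± 0.47, adjusted p 0.16), with CL replicate 1 far above the other 3 libraries. The Ccl8-led cluster, the one with the highest Pdgfc level, had 142 and 150 cells in the RT libraries and 1216 and 328 in CL, and its Pdgfc was 32.4 and 19.1 CPM at RT and 63.1 and 26.3 in CL. The Lilra5-led cluster, the highest in Pdgfb, had 566 and 541 cells at RT and 208 and 222 in CL. Within the Ccl8-led cluster neither gene was called under CL, with Pdgfc at 0.83 ± 0.44 (adjusted p 0.349) and Pdgfb at -1.62 ± 0.50 (adjusted p 0.113), and in the Retnla-led cluster Pdgfb differed by 0.46 ± 0.44 (adjusted p 0.630). Without CL replicate 2 the MAC-like differences were -1.84 for Pdgfb (adjusted p 0.00469) and 1.63 for Pdgfc (adjusted p 0.0119), and without CL replicate 1 they were -0.87 (adjusted p 0.237) and 0.26 (adjusted p 0.789). In ASC2-like cells Pdgfc had 27.3 and 48 CPM at RT and 14.3 and 19.6 in CL (-0.76 ± 0.27, adjusted p 0.589). In ASC1-like cells neither Pdgfa (0.39 ± 0.34) nor Pdgfd (-0.50 ± 0.31) was called under CL (adjusted p 0.683 and 0.552). Leaving out the barcodes common to the 2 fractions of an experiment left the count at 0.

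**Figure D4:**
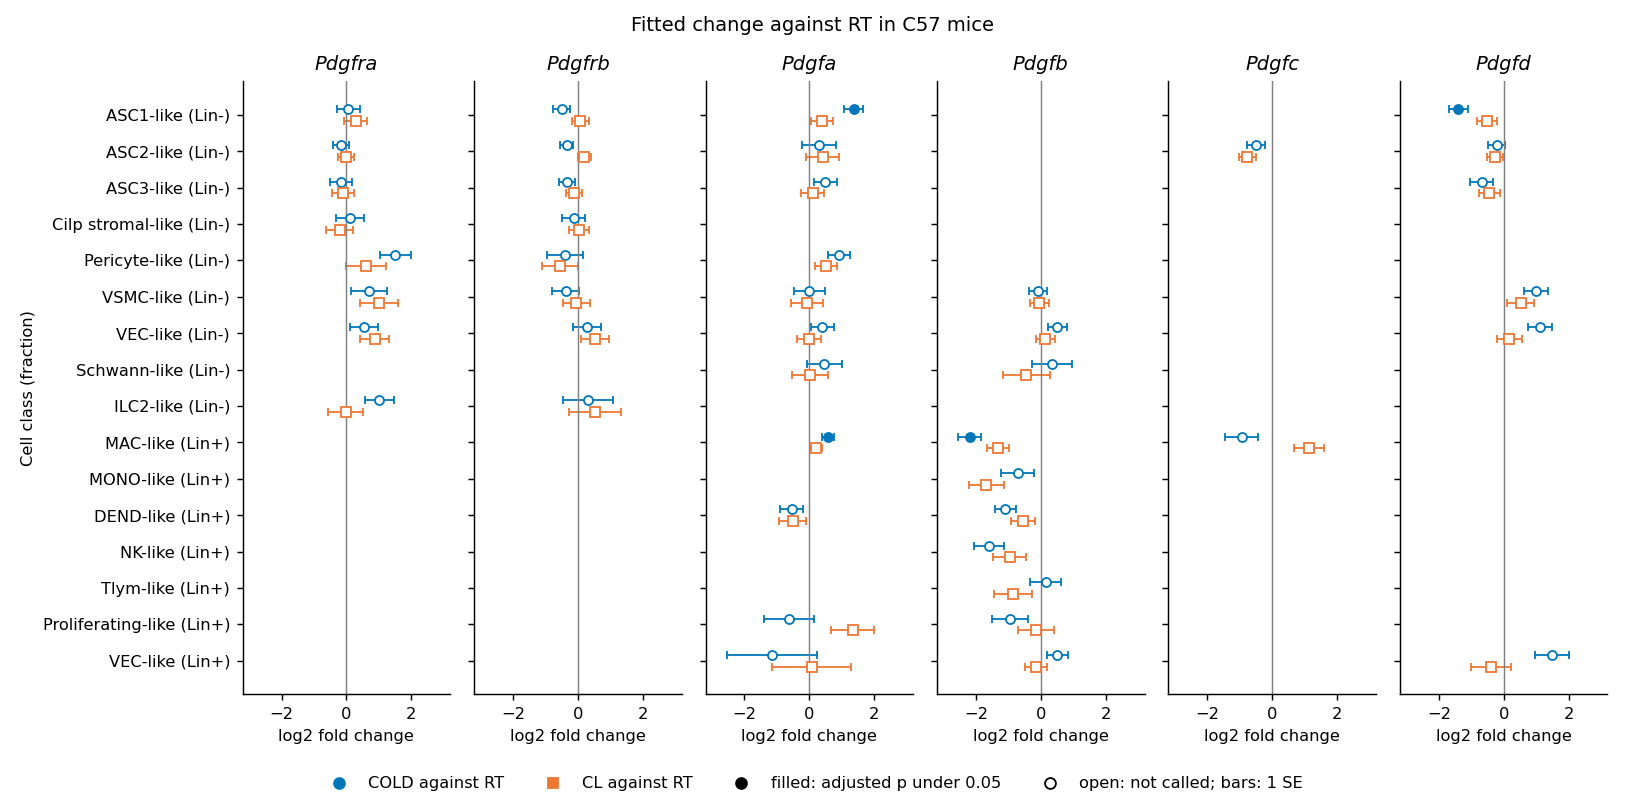
Log2 fold change of each tested pair of a PDGF gene and a cell class, COLD minus RT and CL minus RT, with bars of 1 SE; filled points have an adjusted p under 0.05. The filled points are Pdgfa (1.37) and Pdgfd (-1.39) in ASC1-like cells and Pdgfa (0.57) and Pdgfb (-2.19) in MAC-like cells, all in the cold, and no CL point is filled.

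The KO comparison asked how the family stood where Adrb1 was deleted in Pdgfra-expressing cells. Adrb1 (chromosome 19, 56722199 to 56733113, + strand) itself was read first. In ASC1-like cells it had 6.28 CPM in WT and 0 in KO at RT (11 and 0 counts) and 3.80 CPM in WT and 0.546 in KO in the cold (44.2 and 3.97 counts). In Pericyte-like cells, where the driver is low, the WT and KO libraries had 333 and 166 CPM at RT, then 161 and 179 CPM under cold exposure.

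Pdgfra was lower in KO than in WT in the stromal classes. In ASC1-like cells it had 786 CPM in WT and 474 in KO at RT (1375 and 690 counts) and 280.1 CPM in WT and 157 in KO in the cold (3260 and 1142 counts). At RT the WT and KO levels were 407 and 248 CPM in ASC2-like, 553 and 335 in ASC3-like and 838 and 412 in Cilp stromal-like cells. Under cold exposure they were 215 and 99.5 CPM in ASC2-like, 288 and 171 in ASC3-like and 348 and 155 in Cilp stromal-like cells. The KO to WT ratio over 5 stromal classes and 2 temperatures was below 1 in 10 of 10 cases, from 0.446 to 0.864 with a median of 0.599. For Pdgfrb in the same cells the ratio was 0.772 to 1.09 with a median of 0.990, and 6 of 10 were below 1. C57 mice, which carry no Cre, had 371 to 470.2 CPM of Pdgfra in ASC1-like cells, so that both RT libraries of the Adrb1 line were above them and both of its cold libraries were below them. Differentiating adipocyte-like cells in the cold went against the rest, with 54.5 CPM in WT and 83.7 in KO, from 62 and 31 counts.

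With 1 pool per genotype and temperature, the test was fitted on all 10 libraries of the fraction. Its spread was borrowed mainly from the replicates of the male C57 mice, so the Adrb1 libraries were assumed to vary like them. It called 0 of 44 pairs by edgeR, against 0.00925% of all pairs, and DESeq2 also called 0. An unadjusted p under 0.05 was reached by 11 of the 44, against 3.01% of all pairs, and 8 of the 11 were Pdgfra. Pdgfra had a negative estimate in the 9 of 9 classes tested, from -0.74 to -2.70. The values were -0.80 ± 0.31 in ASC1-like (unadjusted p 0.0265), -0.93 ± 0.23 in ASC2-like (0.00207), -0.74 ± 0.29 in ASC3-like (0.0274) and -1.13 ± 0.39 in Cilp stromal-like cells (0.00747), each with an adjusted p of 1.0 in edgeR. Fitted on the 4 libraries of the Adrb1 line alone, the estimates in these 4 classes were -0.80, -0.92, -0.73 and -1.14, in the same order. This fit has 1 residual degree of freedom, from the assumption that genotype acts alike at both temperatures. For that reason only the sizes of its estimates are given. In the fit of 10 libraries, the estimates in classes with little Pdgfra were larger, -1.79 ± 0.91 in Pericyte-like, -2.41 ± 0.61 in VEC-like, -2.26 ± 0.83 in VSMC-like and -2.70 ± 0.71 in Schwann-like cells. They rest on low levels. Over the 10 libraries Pdgfra ran from 9.21 to 80.0 CPM in Pericyte-like and from 2.48 to 27.4 in VEC-like cells. It ran from 0 to 48.3 CPM in VSMC-like and from 0 to 84.2 in Schwann-like cells. In those VEC-like cells the ASC1 markers summed to 166 CPM in WT and 113 in KO at RT, then 179 and 81 CPM under cold exposure, and the part of RNA from stromal cells there was not tested. The same VEC-like cells had Pdgfrb lower in KO (-1.38 ± 0.52, unadjusted p 0.0247, adjusted p 1.0). The Cre allele and the loss of Adrb1 came together in these mice, so their parts in the Pdgfra level cannot be told apart.

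For the ligands the KO comparison made no call by edgeR. In ASC1-like cells Pdgfa differed by -0.63 ± 0.32 and Pdgfd by 0.57 ± 0.33. In VEC-like cells of the Lin- fraction Pdgfb differed by 0.49 ± 0.28 and Pdgfd by 0.10 ± 0.35. Pericyte-like Pdgfa differed by 0.87 ± 0.38 (unadjusted p 0.0394). NK-like cells of the Lin- fraction had 33.4 CPM of Pdgfb in WT and 149.5 in KO at RT, against 29.9 and 49.5 under cold exposure (1.44 ± 0.56, unadjusted p 0.0241), and the VEC markers in them summed to 588 CPM in WT and 2572 in KO at RT, whose part in the result was not tested.

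The family works with proteases that activate its ligands, extracellular binding partners, co-receptors, signal enzymes and negative regulators, and 27 such genes were followed as a list. In the cold 19 of 339 pairs were called, 6 higher and 13 lower, which is 5.60% against 4.97% of all pairs. ASC1-like cells held 7 of these calls among 26 genes tested, 1 higher and 6 lower, a share of 26.9% where 13.2% of all genes were called. The largest was Cspg4, a proteoglycan that binds PDGF-AA (-2.93 ± 0.39, adjusted p 0.00218), followed by Plau, the urokinase that can activate PDGF-D (-1.94 ± 0.19, adjusted p 0.000609). Plat, the protease that activates PDGF-C, was lower (-0.81 ± 0.22, adjusted p 0.0396), as were Pcsk6 (-1.10 ± 0.20), a proprotein convertase, Pik3r1 (-1.03 ± 0.21), the regulatory subunit of PI3-kinase, and Sh2b3 (-0.89 ± 0.20), an adaptor that dampens kinase signals. Ptpn2, a tyrosine phosphatase, was higher (0.68 ± 0.15, adjusted p 0.0197). In Pericyte-like cells Plat was higher (1.99 ± 0.27, adjusted p 0.00682). MAC-like cells held 8 calls among 21 genes tested, 2 higher and 6 lower, a share of 38.1%, near the 35.2% of all genes called there. Src, a kinase that binds activated receptors (-2.04 ± 0.58), Plcg1, a phospholipase (-1.55 ± 0.41), and Ptprj, a phosphatase of PDGF receptors (-1.50 ± 0.21), had the largest values there, and Lrp1 (0.63 ± 0.17) and Grb2 (0.58 ± 0.17) were higher. Under CL 2 of 339 pairs were called by edgeR, which is 0.590% against 0.694% of all pairs. They were Plau in ASC1-like cells (-1.19 ± 0.20, adjusted p 0.0252) and Sparc in B lymphocyte (Blym)-like cells (2.94 ± 0.53, adjusted p 0.0301). The part of RNA from other cells in the Sparc result was not tested. In KO 0 of 336 were called by edgeR, with 9 at an unadjusted p under 0.05, where 3.01% of all pairs had one.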

How the data were processed

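Brown adipose tissue cells of 20 10x libraries were analysed. The authors aligned reads with Cell Ranger 3.0.1 to mm10, per the submitters' processing notes, and removed ambient RNA with SoupX, so the deposited tables hold estimated counts (UMIs) per gene and cell that are mostly not whole. Such removal, which took Fabp4 and Car3 as marks of free RNA, can lower genes shed by other cells unevenly between libraries.

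Cells with under 10% mitochondrial UMIs and fewer than 15000 UMIs were kept, with fewer than 4000 genes in Lin+ and more than 100 in Lin-. Each fraction was clustered with scanpy 1.11.5 and leidenalg 0.10.2 (2000 variable genes without the 6 members, 30 principal components aligned over 6 cohorts, 30 neighbours, resolution 1), and a cluster took the name of the marker list it matched, as "X-like", where at least 3 markers were raised 2-fold. A cluster stayed unnamed where its leading genes held more markers of another class, beyond a single one, than of the matched class. A named class can thus still hold a cluster led by a marker from another list. No doublets were removed except in the alternative that dropped the 6% of cells with the highest doublet scores.

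Counts were summed per library and class (20 cells or more), rounded to whole numbers and tested two-sided with edgeR 4.0.16 (quasi-likelihood, TMM) on 6 C57 libraries, or on 10 libraries for KO against WT, at an adjusted p of 0.05. DESeq2 1.42.0, other filters, factors, clusterings and left-out libraries were tried as alternatives. Scripts were tested on simulated data. The exact binomial intervals of the WT and KO levels cover counting error only. The SEs of differences come from the edgeR fits and also include spread between libraries. The 2 replicates of a C57 group came from separate experiments, and by the study's methods libraries with the same replicate number belong to one experiment, so the numbers pair the groups. Deviations of same-numbered libraries from their group means had correlations of -0.0954 to 0.568 over genes. The replicate block was an alternative, given beside a result where it changes the call.

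The members, gene lists and tests were chosen with earlier results of these data known. Named genes were the 6 members in every class and contrast, the 5 genes most like each over the classes, and, of the pathway list, genes past the threshold with the largest changes. Clusters named by a leading gene were chosen after their values were seen, as were the fits of single clusters, the fit without shared barcodes and that counting a haemoglobin-led endothelial cluster as VEC-like. One result on a gene that is withheld is not reported here.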

Additional observations from a re-analysis of the deposited data

Results flagged for a closer look

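The cold response of Pdgfd differed between 2 stromal subtypes. In ASC1-like cells its level went from 15.6 and 15.1 CPM at RT to 5.5 and 5.6 CPM in COLD, and in ASC2-like cells from 29.9 and 67.1 CPM to 34.7 and 38.5 CPM. The test of the difference itself, with library as a block over the 6 C57 Lin- libraries, gave -1.28 ± 0.32 on the log2 scale (edgeR, adjusted p 0.0226). It was called in 4 of 7 alternatives, with values from -1.77 to -0.48 and adjusted p up to 0.496. Without RT replicate 1 the difference was -0.48 and not called. In the Adrb1 line, outside this test, Pdgfd in ASC2-like cells went from 44.2 to 27.7 CPM in WT and from 50.4 to 36.6 CPM in KO, while in ASC1-like cells it went from 13 to 3.4 CPM and from 16.8 to 6.0 CPM. The cluster makeup of the ASC1-like class also changed with temperature, as given above, and Pdgfd was not called within its single clusters. The part of that makeup in the difference between subtypes was not tested.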

How the results depend on the processing

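The class with the highest level of each member stayed first in the 4 alternatives run for levels, except that Pdgfra was highest in ASC1-like cells with clustering at resolution 2. The cold comparison called 4 pairs. It called 9 with no filter on low counts, 7 with the 8 RT and COLD libraries of both lines, and 1 to 5 when one replicate was left out, where the lone library of a group was assumed to vary like the others. The 4 calls were among those of both larger counts. The CL comparison, with 0 calls, gave 1 with DESeq2, 4 with no filter on low counts and 0 to 2 when one replicate was left out, the 2 being those without CL replicate 2. The KO comparison, with 0 calls, gave 2 with no filter on low counts, Pdgfra in Schwann-like and VEC-like cells. The difference between ASC1-like and ASC2-like cells, with 1 call, gave 0 to 1 when one replicate was left out. The cause of these shifts was not tested, beyond the smaller number of libraries in the left-out fits. These counts, and those with the replicate block below, are of member pairs alone. The share of all pairs called under each alternative is not given, so they cannot be set against other genes.

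With the replicate experiment as a block, the CL comparison called 2 pairs, Pdgfb and Pdgfc in MAC-like cells, and the cold comparison called 5, the fifth being Pdgfc in MAC-like cells. Beside these and Pdgfc and Pdgfd in the summed ASC lineage, the block changed no other call of a member. The KO comparison had no replicates to block.

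Of the cold calls, Pdgfb in MAC-like cells was kept in 15 of 15 alternatives, Pdgfd in ASC1-like cells in 12, Pdgfa in ASC1-like cells in 11 and Pdgfa in MAC-like cells in 10. DESeq2 gave the last an adjusted p of 0.0866. In single clusters 2 directions turned, Pdgfa in the Gpnmb-led MAC-like cluster (-0.19) and Pdgfb in the Retnla-led one (0.42). Depth limits low genes: ASC1-like Pdgfa rested on 15.1 to 34.2 counts in the RT libraries. Leaving out barcodes common to both fractions, cells over 5% mitochondrial UMIs or the highest doublet scores left the 4 cold calls in place.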

Other observations

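Of the unnamed clusters of the Lin- fraction, 3 are described for their PDGF ligand RNA, chosen after their values were seen. One of them, led by the pericyte gene Rgs5, had mean levels of 402 CPM for Pdgfa, 253 for Pdgfb, 112 for Pdgfd and 359.6 for Pdgfrb. Another, led by the smooth muscle gene Actg2 with Krt14 and Krt17 among its leading genes, had mean levels of 396 CPM for Pdgfa, 30.1 for Pdgfc, 40.4 for Pdgfd and 222 for Pdgfrb over 8 libraries. The last was led by haemoglobin genes and held endothelial markers, and 77.81% of its 4106 cells came from CL replicate 1. It had mean levels of 182 CPM for Pdgfb and 68.4 CPM for Pdgfd. Counting it as VEC-like left the cold estimate for Pdgfd in that class at 1.12 ± 0.39 (edgeR, adjusted p 0.360).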
